A study of Homo sapiens with 6 samples.

Results

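The genes described here encode the HSP70 and HSP90 chaperone systems with their co-chaperones, together with STUB1, the ubiquitin ligase that works on them. They were selected by gene symbol, from a list chosen with earlier results of these data known. Of 54 genes listed, 53 had a row in the deposited table of 23569 genes, and these 53 were all among the 15353 genes that were tested, which averaged 0.1 FPKM or more. DNAJA4 has no row in the table. RNA-seq had been performed on TFK1 cells, a human cancer line derived from the bile duct outside the liver, to look for genes regulated downstream of STUB1. The negative control cells (oeNC, 3 libraries) carried the lentiviral negative control, and the STUB1 overexpression cells (oeSTUB1, 3 libraries) carried the coding sequence of STUB1 in the lentiviral vector pHAGE. Both had been selected with puromycin, and no further treatment is described for them. The methods do not say whether a group held more than 1 transduced line. A difference between the lines and an effect of STUB1 therefore cannot be told apart. FPKM is the number of fragments of a gene scaled to its length and to the fragments of the library.

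HSP70 proteins bind exposed hydrophobic stretches of unfolded proteins in a cycle driven by ATP. HSP40 proteins, also called J-domain proteins, bring clients to HSP70 and start its ATP hydrolysis, and BAG and HSP110 proteins make it release ADP. HSP90 takes over partly folded clients from HSP70 through the adaptor STIP1. STUB1, also known as CHIP, binds the C-terminal tail of HSP70 and HSP90 through its tetratricopeptide (TPR) domain and ubiquitinates the clients they hold. Transcription of many of these genes is driven by heat shock factor 1, which binds inverted repeats of the letters GAA, the heat shock element.

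To show where such letters lie in these genes, the 250 bases before the start of each gene were searched for GAANNTTC and TTCNNGAA, which are 2 facing repeat units, and for GAANNTTCNNGAA and TTCNNGAANNTTC, which are 3. Each motif was searched on both strands, since each reads the same way on the other strand or is the reverse complement of its partner, and a match to 3 units also holds 2 matches to 2 units. RefSeq promoter sequences of build GRCh38.p14 were given for 47 of the 53 genes. At least 1 match to 2 units lay before 16 of them (34.0%) and before 11.6% of the 11980 tested genes with a promoter sequence. Matches to 3 units lay before 5 genes (10.6%) and before 0.459% of the tested genes. These 5 were HSPA8, DNAJB6, HSP90AA1, HSP90AB1 and HSPD1. A match is a run of letters and not a measured binding site. Stretches of 10 of the 16 genes with a match, picked by hand, are printed 5′ to 3′ on the strand of the gene, with matched letters in capitals. No fold change or call below depends on these letters.
HSPA8: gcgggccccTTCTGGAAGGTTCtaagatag
DNAJB1: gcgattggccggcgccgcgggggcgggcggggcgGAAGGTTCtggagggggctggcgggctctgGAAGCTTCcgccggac
DNAJB6: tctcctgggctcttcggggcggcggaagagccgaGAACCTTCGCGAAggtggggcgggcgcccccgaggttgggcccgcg
DNAJA1: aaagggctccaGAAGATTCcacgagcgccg
HSPB8: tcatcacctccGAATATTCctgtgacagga
HSPA1A: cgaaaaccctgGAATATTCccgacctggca
HSPA1B: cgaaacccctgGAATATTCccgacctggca
HSP90AA1: TTCCGGAAGGTTCgggaggcTTCTGGAAaa
HSP90AB1: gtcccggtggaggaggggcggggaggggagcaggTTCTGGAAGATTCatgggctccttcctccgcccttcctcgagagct
HSPD1: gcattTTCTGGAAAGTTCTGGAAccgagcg
The stretches lie at chr11:123062171-123062200 (minus strand) for HSPA8, chr19:14518429-14518508 (minus) for DNAJB1, chr7:157336839-157336918 (plus) for DNAJB6, chr9:33025064-33025093 (plus) for DNAJA1 and chr12:119178832-119178861 (plus) for HSPB8. They lie at chr6:31815426-31815455 (plus) for HSPA1A, chr6:31827622-31827651 (plus) for HSPA1B, chr14:102087103-102087132 (minus) for HSP90AA1, chr6:44247744-44247823 (plus) for HSP90AB1 and chr2:197500061-197500090 (minus) for HSPD1. Stretches of 30 bases are given where a longer one would hold an annotated exon, and for the pair HSPA1A and HSPA1B, whose stretches differ at 1 base. In GENCODE release 29 the stretches of HSPA8, HSPB8 and HSP90AA1 still fall within an exon of another transcript of the same gene. That of HSPD1 falls within exons of HSPD1 and of the facing gene HSPE1, and that of DNAJA1 within an exon of the facing gene APTX. Those of DNAJB1, DNAJB6 and HSP90AB1 lie within introns of longer transcripts of the same gene, that of DNAJB1 also within an intron of TECR, and those of HSPA1A and HSPA1B are intergenic.

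The TFK1 libraries held 33106564 to 36744521 fragments each, as recovered from the steps of the FPKM values. STUB1 lies on chromosome 16 from 680224 to 682870 on the plus strand of GRCh38 (GENCODE release 29). Its expression was 32.9, 33.0 and 30.9 FPKM in oeNC replicates 1, 2 and 3 and 61.4, 75.0 and 61.9 FPKM in oeSTUB1 replicates 1, 2 and 3. The groups did not overlap, with means of 32.3 ± 1.23 and 66.1 ± 7.70 FPKM (SD, n = 3 each) and a log2 fold change of 1.03 (standard error, SE, 0.097, limma adjusted p = 0.00064). Fragments of the transduced and of the endogenous STUB1 are counted together. Of the exonic bases of STUB1, 42.4% overlap JMJD8 on the opposite strand, whose log2 fold change was 0.26 (limma adjusted p = 0.11), and the use of strand in counting is not given in the sources used here. Among 8 markers of bile duct epithelium, KRT8, KRT18 and KRT7 were abundant, whereas KRT19 and CLDN4 had means of 0.453 and 0.274 FPKM in oeNC cells. The summed level of the 8 was 7420 to 7996 FPKM in oeNC and 4724 to 6264 FPKM in oeSTUB1 libraries. Most of this sum was KRT8 and KRT18. KRT7 went the other way, with means of 502 and 704 FPKM and no overlap (log2 fold change 0.47, limma adjusted p = 0.082). Without oeSTUB1 replicate 2, KRT7 was called higher at 0.30 (limma adjusted p = 0.013). Of the 8, 4 were lower (KRT8, KRT18, EPCAM and CDH1), beside 6.59% of all tested genes, and 1 was higher, beside 7.01%. The higher marker was KRT19, with a mean of 2.97 FPKM in oeSTUB1 cells (log2 fold change 2.47, limma adjusted p = 0.00018). The summed levels of fibroblast markers were 1.28 to 2.32 and 2.05 to 3.92 FPKM, of leukocyte markers 5.46 to 7.97 and 6.83 to 7.81 FPKM, of endothelial markers 0.0713 to 0.0973 and 0.0974 to 0.231 FPKM, and of hepatocyte markers 1.59 to 1.85 and 1.24 to 1.72 FPKM. Many markers of these 4 other lists averaged under 0.1 FPKM and were not tested, COL1A2, CDH5 and ALB among them. None of those tested passed the test, and no marker was at 0 in all 6 libraries.

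The library of oeSTUB1 replicate 2 stood apart from the other 2 of its group. Between replicates, the chi-square of the fragments over genes was 82.6 per degree of freedom for oeSTUB1 replicates 1 and 2, 76.7 for 2 and 3, 10.0 for 1 and 3, and 3.48 to 10.4 among the oeNC libraries. Of the 53 chaperone genes, 44 were highest of their group in oeSTUB1 replicate 2 and 7 were lowest, whereas 41.0% of all tested genes were highest there and 42.6% were lowest. The shift went with gene length. The 11 chaperone genes recovered with a length under 2000 bases lay above the mean of replicates 1 and 3 by a median of 0.28 on the log2 scale, and the 42 longer ones by 0.13. Over all tested genes the same medians were 0.33 and -0.08. The cause of the shift was not tested, and calls after a correction for these recovered lengths are given at the end. In oeNC replicate 3, 30 of the 53 genes were lowest of their group, beside 31.2% of all tested genes, and some HSP70 genes were far below the other controls. The counts of called genes over the whole set are therefore also given without these libraries.

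A gene was called higher or lower at a Benjamini-Hochberg adjusted p under 0.05 from limma over all tested genes, with no minimum fold change. Of the 53 chaperone genes, 11 were higher in oeSTUB1 cells, beside 7.01% of all tested genes, and 1 was lower, beside 6.59%. The 10 higher genes other than STUB1 were HSPA8, HSPH1, HSPB8, DNAJA1, DNAJB1, DNAJB5, DNAJB6, DNAJC2, BAG1 and PPID, and the lower gene was FKBP5. The median log2 fold change of the 53 was 0.19, against 0.02 over all tested genes, and 44 of 53 were above 0, against 52.6% of all tested genes. In 31 genes all 3 oeSTUB1 libraries lay above all 3 oeNC libraries (21.5% of all tested genes), in 3 genes below (17.3%), and in 19 the groups overlapped. Most of the changes were small. Only STUB1 passed the test with an absolute log2 fold change over 1, beside 5.2% of all tested genes. HSPA1A and HSPA1B also had log2 fold changes over 1, at 1.25 and 1.02, but did not pass. In bulk RNA, a change in expression per cell and a change in the share of cells that express a gene cannot be told apart.

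**Figure D1:**
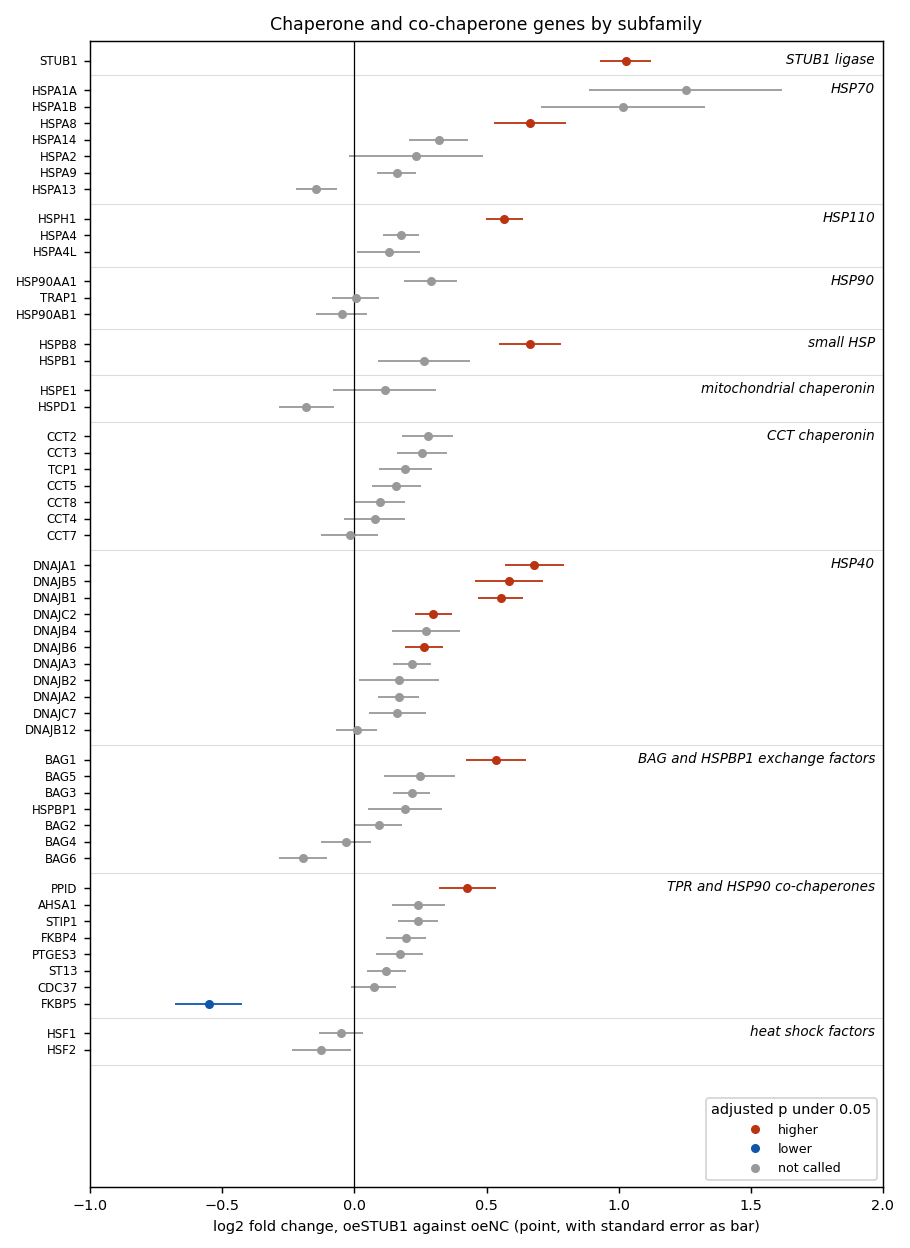
Log2 fold change of each of the 53 genes in oeSTUB1 against oeNC cells (points, with the standard error as bars), grouped by subfamily. The 11 genes called higher are red, the lower gene FKBP5 is blue and the 41 not called are grey, and HSPA1A and HSPA1B have the longest bars.

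Among the HSP70 genes, the constitutive cytosolic HSPA8 was called higher and the stress-inducible pair HSPA1A and HSPA1B had larger differences that did not pass the test. HSPA8 expression was 460.5, 456 and 342 FPKM in oeNC replicates 1, 2 and 3 and 665, 699 and 613 FPKM in oeSTUB1 replicates 1, 2 and 3. The groups did not overlap although oeNC replicate 3 was low, and the means were 419.5 ± 67.2 and 659 ± 43.4 FPKM (SD, n = 3 each). The log2 fold change was 0.66 (SE 0.136, limma adjusted p = 0.018), and 0.52 without oeNC replicate 3 (limma adjusted p = 0.058). HSPA8 was called in 3 of the 6 fits that left out 1 library. HSPA1A encodes the major heat-inducible HSP70. It was expressed at 14.3, 13.6 and 4.97 FPKM in oeNC and 22.4, 27.0 and 22.2 FPKM in oeSTUB1 libraries. HSPA1B, its near-identical neighbour, gave 12.7, 13.1 and 5.43 FPKM against 19.5, 22.0 and 17.7 FPKM. For both genes all oeSTUB1 libraries lay above all oeNC libraries, and oeNC replicate 3 lay far below the other 2 control libraries. The log2 fold changes were 1.25 (SE 0.364, limma adjusted p = 0.060) for HSPA1A and 1.02 (SE 0.309, limma adjusted p = 0.069) for HSPA1B. Without oeNC replicate 3 both were smaller and were called, with 0.76 (limma adjusted p = 0.015) for HSPA1A and 0.61 (limma adjusted p = 0.030) for HSPA1B. The division of fragments between them is uncertain, because 67.3% of the 100-base words of HSPA1A transcripts and 72.7% of those of HSPA1B also occur in transcripts of other genes, the top partner of each being the other.

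HSPA2, an HSP70 gene best known from the testis, showed the same low value in oeNC replicate 3, with 51.7, 46.7 and 24.3 FPKM in oeNC against 46.8, 46.9 and 43.6 FPKM in oeSTUB1 libraries. Its groups overlapped (log2 fold change 0.23, limma adjusted p = 0.58), and without oeNC replicate 3 the direction turned (-0.10, not called). HSPA14, an HSP70 bound to ribosomes, gave 0.32 on the log2 scale (limma adjusted p = 0.10). The value of oeSTUB1 replicate 2 was 23.4 FPKM, against 18.4 and 17.9 FPKM in replicates 1 and 3, and without that library HSPA14 was called at 0.20 (limma adjusted p = 0.023). The mitochondrial HSPA9 (0.16) and the microsomal HSPA13 (-0.14) were not called. In all, 1 of 7 HSP70 genes was higher, beside 7.01% of all tested genes, and oeSTUB1 lay wholly above oeNC in 5, beside 21.5%. The median log2 fold change of the 7 was 0.32. Without oeNC replicate 3, 2 were higher, beside 3.67%, and without oeSTUB1 replicate 2 also 2, beside 14.8%.

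**Figure D2:**
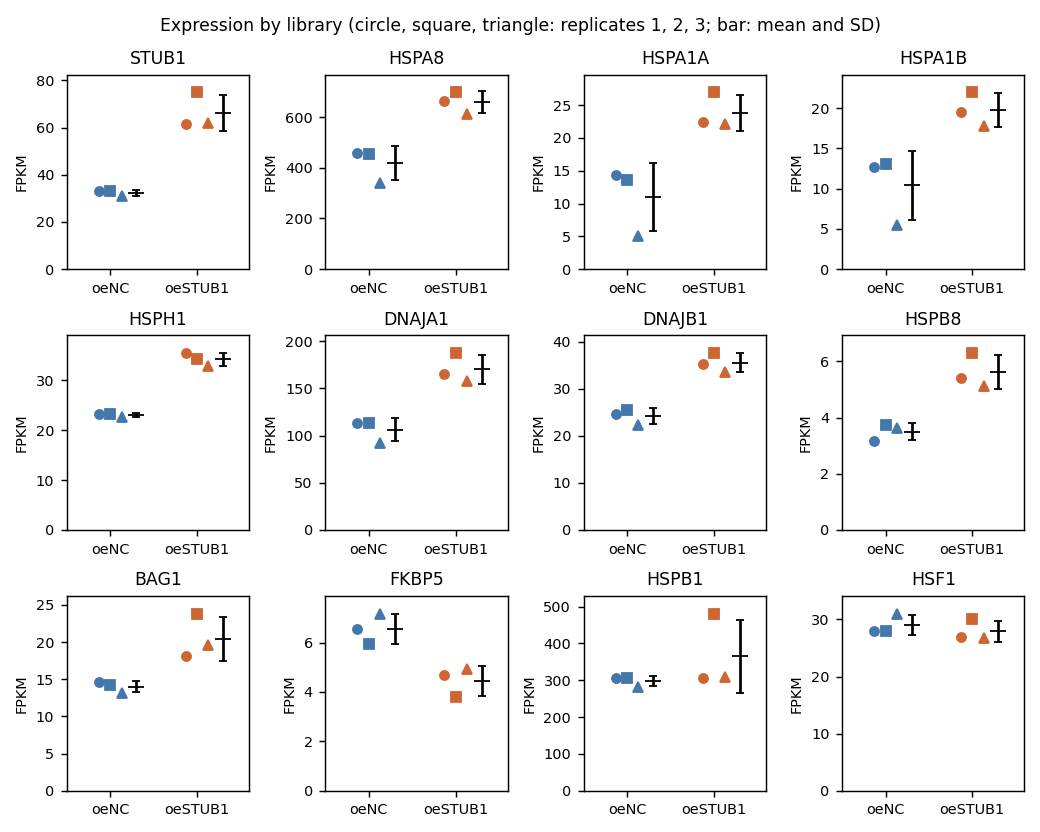
FPKM of 12 genes in each library, oeNC blue and oeSTUB1 orange, with replicates 1, 2 and 3 as circle, square and triangle and the group mean with its SD as black bars, each axis starting at 0. The triangle of oeNC is low for HSPA8, HSPA1A, HSPA1B and DNAJA1, and the square of oeSTUB1 is high for HSPB1 and STUB1.

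HSP110 proteins are HSP70 relatives that act as its nucleotide exchange factors. HSPH1, the stress-inducible member, was expressed at 23.3, 23.2 and 22.7 FPKM in oeNC and 35.5, 34.3 and 32.9 FPKM in oeSTUB1 libraries. The groups did not overlap, with means of 23.1 ± 0.320 and 34.2 ± 1.28 FPKM (SD, n = 3 each). The log2 fold change was 0.57 (SE 0.070, limma adjusted p = 0.0021), and it was 0.56 without oeSTUB1 replicate 2 and without oeNC replicate 3 alike. HSPA4 was called in the fit without oeSTUB1 replicate 2 (0.16, limma adjusted p = 0.022, against 0.18 and adjusted p = 0.13 with all libraries). HSPA4L was expressed at 3.48 ± 0.0368 and 3.84 ± 0.513 FPKM (SD, n = 3 each), which differ by less than the SD of oeSTUB1.

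No HSP90 gene passed the test. The constitutive HSP90AB1 was the most abundant of the 53 genes and was expressed at 732, 714 and 697 FPKM in oeNC and 693, 732 and 650.3 FPKM in oeSTUB1 libraries. The groups overlapped, with a log2 fold change of -0.05 (SE 0.095, limma adjusted p = 0.77). The stress-inducible HSP90AA1 gave 484, 467 and 448 FPKM in oeNC and 583, 611 and 517 FPKM in oeSTUB1 libraries. All oeSTUB1 libraries were higher, and the log2 fold change was 0.29 (SE 0.0997, limma adjusted p = 0.098). Without oeSTUB1 replicate 2 it was 0.24 and was called (limma adjusted p = 0.030). TRAP1, the mitochondrial HSP90, had means of 83.4 ± 1.15 and 84.0 ± 8.32 FPKM (SD, n = 3 each). HSP90AB1 and HSP90AA1 both hold matches to 3 repeat units in the stretches printed above.

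Small heat shock proteins hold unfolded proteins without ATP. HSPB8, which forms a complex with BAG3 and HSP70, was expressed at 3.16, 3.74 and 3.61 FPKM in oeNC and 5.41, 6.30 and 5.13 FPKM in oeSTUB1 libraries. The groups did not overlap, and the log2 fold change was 0.66 (SE 0.117, limma adjusted p = 0.0094). HSPB8 was called in 5 of the 6 fits that left out 1 library, the other being that without oeNC replicate 1 (limma adjusted p = 0.051). The more abundant HSPB1 (HSP27) gave 305, 305 and 282 FPKM in oeNC and 306, 479.9 and 309.5 FPKM in oeSTUB1 libraries. The difference of HSPB1 came from oeSTUB1 replicate 2 alone. Its log2 fold change was 0.26 (limma adjusted p = 0.35) with that library and 0.05 (limma adjusted p = 0.49) without it.

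The chaperonins enclose a folding protein in a chamber. HSPD1 (HSP60) and its lid HSPE1 (HSP10) form the mitochondrial one, and neither was called. HSPD1 was expressed at 454, 444 and 439 FPKM in oeNC and 378, 447 and 360.0 FPKM in oeSTUB1 libraries, so that oeSTUB1 replicates 1 and 3 lay below every control and replicate 2 among them. Its log2 fold change was -0.18 (limma adjusted p = 0.29), and without oeSTUB1 replicate 2 it was -0.27 and HSPD1 was lower (limma adjusted p = 0.0047). HSPE1 gave 66.8, 69.0 and 55.4 FPKM against 57.9, 95.6 and 58.5 FPKM. Its direction changed from 0.11 to -0.12 without oeSTUB1 replicate 2, neither called. Exons of HSPE1 overlap those of HSPD1 and of the read-through gene HSPE1-MOB4. HSPD1 and HSPE1 lie side by side on chromosome 2, where the median log2 fold change of the 938 tested genes was -0.20, and it was -0.26 over the 13 tested genes within 2 Mb of HSPD1. The part of the chromosome in the values of these genes was not tested.

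The CCT complex folds actin and tubulin in the cytosol. None of its 7 genes listed was called, and the median log2 fold change was 0.16 with all libraries and 0.08 without oeSTUB1 replicate 2. In 4 of the 7, CCT2, CCT3, CCT5 and TCP1, oeSTUB1 lay wholly above oeNC, beside 21.5% of all tested genes. The 2 with the largest differences were CCT2 and CCT3. CCT2 was expressed at 145, 136 and 137 FPKM in oeNC and 169, 188 and 151 FPKM in oeSTUB1 libraries (log2 fold change 0.28, limma adjusted p = 0.10). CCT3 gave 228, 220.5 and 217 FPKM against 254, 296 and 247 FPKM (0.26, limma adjusted p = 0.12). Without oeSTUB1 replicate 2 both were called, at 0.20 for CCT2 and 0.17 for CCT3. All 7 genes were highest in that library, where their summed level was 1455 FPKM, against 1233 and 1160.3 FPKM in oeSTUB1 replicates 1 and 3 and 1139 to 1187 FPKM in oeNC libraries. The summed level of oeSTUB1 replicate 3 thus fell among those of the controls. Without oeSTUB1 replicate 2 the log2 fold changes of CCT4 and CCT7 were -0.05 and -0.12, and neither was called. Both genes lie on chromosome 2, whose median with all libraries was -0.20, as given above for HSPD1. Within 2 Mb the medians over the other tested genes were -0.14 for CCT4 and -0.13 for CCT7. The part of chromosome position in the values of CCT4 and CCT7 was not tested.

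Of the 11 HSP40 genes in the table, 5 were higher, beside 7.01% of all tested genes, and none was lower. All 11 log2 fold changes were above 0, beside 52.6% of all tested genes, and the median was 0.26. Without oeNC replicate 3, 2 of the 11 were higher, beside 3.67% of all tested genes, and without oeSTUB1 replicate 2, 6, beside 14.8%. DNAJA1, a general HSP70 partner of the cytosol, was expressed at 114, 113 and 92.3 FPKM in oeNC and 165, 187 and 158 FPKM in oeSTUB1 libraries. The groups did not overlap, and the log2 fold change of 0.68 was the largest of the HSP40 genes (SE 0.112, limma adjusted p = 0.0069). DNAJB1 (HSP40 in the strict sense), which works with HSP110 to pull aggregates apart, gave 24.7, 25.6 and 22.3 FPKM against 35.4, 37.6 and 33.6 FPKM. It rose by 0.55 on the log2 scale (SE 0.085, limma adjusted p = 0.0052), with no overlap between the groups. DNAJB5, a relative of DNAJB1, was much lower in level and rose by 0.59 (SE 0.129, limma adjusted p = 0.023), from 0.963, 1.13 and 0.949 FPKM to 1.56, 1.61 and 1.53 FPKM.

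The other 2 HSP40 genes called had smaller differences and tight replicates. DNAJB6, which keeps polyglutamine proteins from aggregating, was expressed at 21.2, 21.7 and 20.8 FPKM in oeNC and 25.3, 26.4 and 24.7 FPKM in oeSTUB1 libraries (log2 fold change 0.26, limma adjusted p = 0.047). DNAJC2 (MPP11), the J-domain protein that works with HSPA14 on the ribosome, gave 15.3, 15.3 and 16.0 FPKM against 19.3, 19.6 and 18.7 FPKM (0.30, limma adjusted p = 0.031). The groups of both genes did not overlap. DNAJA3, a mitochondrial J-domain protein, gave 0.22 (limma adjusted p = 0.087) and was called without oeSTUB1 replicate 2 at 0.21 (limma adjusted p = 0.026). The other 5 HSP40 genes not called were DNAJA2, DNAJB2, DNAJB4, DNAJB12 and DNAJC7, from 0.01 for DNAJB12 to 0.27 for DNAJB4. Of the 6 fits that left out 1 library, DNAJB5, DNAJB6 and DNAJC2 were each called in 1, that without oeSTUB1 replicate 2. Without oeNC replicate 3, for example, their log2 fold changes were 0.54, 0.25 and 0.32, with adjusted p of 0.088, 0.16 and 0.086 from limma.

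**Figure D3:**
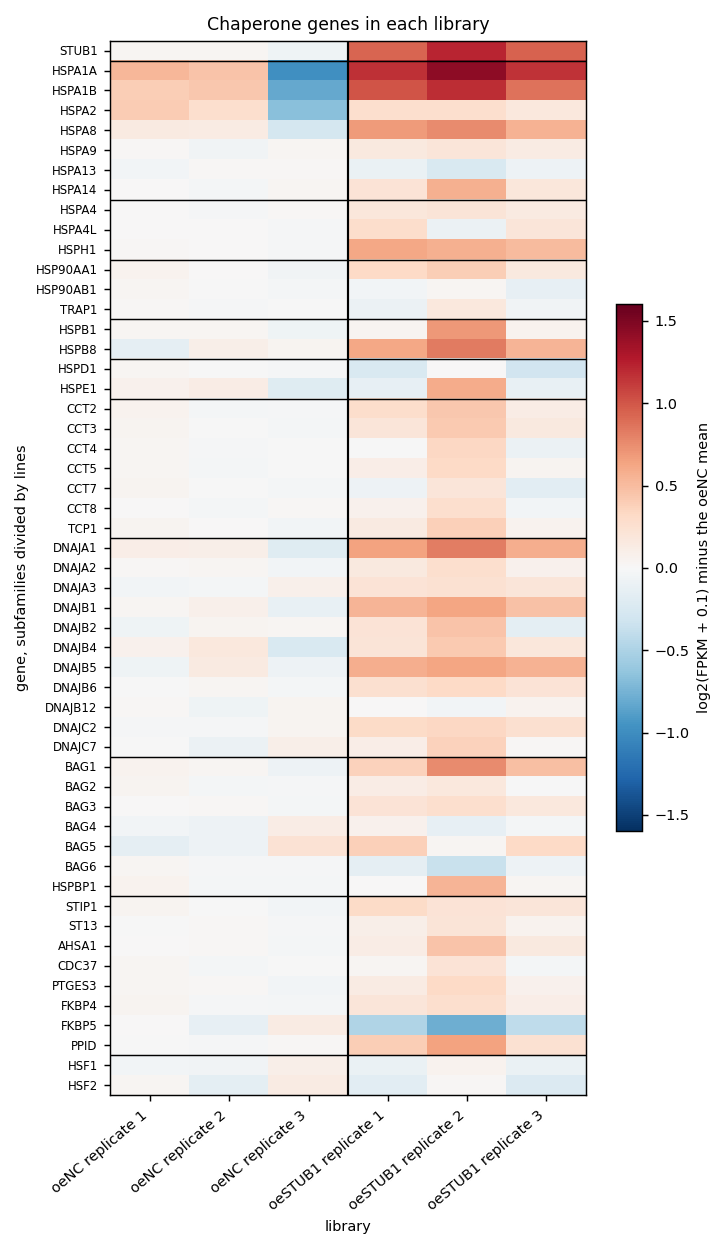
Heat map of log2(FPKM + 0.1) minus the oeNC mean for each of the 53 genes (rows, subfamilies divided by lines) in each of the 6 libraries (columns), red for above and blue for below that mean. The column of oeSTUB1 replicate 2 is the reddest for most rows, including the CCT genes, and oeNC replicate 3 is blue for HSPA1A, HSPA1B and HSPA2.

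BAG proteins bind HSP70 through the BAG domain and make it release ADP, and HSPBP1 does so by another fold. BAG1, which links HSP70 to the proteasome, was called higher, with 14.6, 14.3 and 13.2 FPKM in oeNC and 18.1, 23.8 and 19.5 FPKM in oeSTUB1 libraries. Its log2 fold change was 0.54 (SE 0.112, limma adjusted p = 0.019), and 0.49 without oeNC replicate 3 (limma adjusted p = 0.084). BAG1 was called in 3 of the 6 fits that left out 1 library, those that left out an oeSTUB1 library. BAG3, the stress-inducible partner of HSPB8, gave 31.5, 31.8 and 30.7 FPKM against 36.5, 37.8 and 35.2 FPKM. The groups of BAG3 did not overlap, yet the difference of 0.22 did not pass the test (limma adjusted p = 0.081). It was called at 0.19 without oeSTUB1 replicate 2 (limma adjusted p = 0.019). BAG5, unlike most of the genes, was lowest of its group in oeSTUB1 replicate 2, with 10.9 FPKM against 13.9 and 13.3 FPKM. Its log2 fold change was 0.25 (limma adjusted p = 0.26) and 0.35 without that library (limma adjusted p = 0.050, just under the threshold before rounding). HSPBP1 gave 39.0 FPKM in oeSTUB1 replicate 2 and 26.3 to 27.9 FPKM in the other 5 libraries. BAG2 (0.09), BAG4 (-0.03) and BAG6 (-0.20) were not called.

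The 3 genes DNAJA1, DNAJB5 and BAG1 lie on chromosome 9, from 33025211 for DNAJA1 to 34998900 for DNAJB5 in GENCODE release 29. Of the genes selected at the start, these were the 3 on that chromosome. All 3 were called higher, beside 7.01% of all tested genes. Chaperone genes outside that selection were not counted here. The 554 tested genes of chromosome 9 were centred on 0.16 (median log2 fold change), and 68.1% were above 0. Within 2 Mb of each gene the median over the other tested genes was 0.10 for DNAJA1, 0.10 for BAG1 and 0.06 for DNAJB5, while their own values were 0.68, 0.54 and 0.59 in that order. For HSPA8 on chromosome 11, HSPH1 on chromosome 13 and DNAJB1 on chromosome 19, the medians within 2 Mb were 0.0038, -0.06 and 0.06. The part of chromosome position in these differences was not tested.

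Of the TPR proteins and other HSP90 co-chaperones, PPID was higher and FKBP5 lower. PPID (cyclophilin 40) and FKBP5 (FKBP51) are both TPR proteins with a prolyl isomerase domain that bind the tail of HSP90 in steroid receptor complexes, and FKBP5 is a well known target gene of the glucocorticoid receptor. FKBP5 was expressed at 6.56, 5.94 and 7.16 FPKM in oeNC and 4.67, 3.78 and 4.92 FPKM in oeSTUB1 libraries. All oeSTUB1 libraries were below all oeNC libraries, and FKBP5 fell by 0.55 on the log2 scale (SE 0.127, limma adjusted p = 0.027). PPID gave 18.8, 18.7 and 19.2 FPKM against 24.9, 29.6 and 22.4 FPKM and rose by 0.43 (SE 0.107, limma adjusted p = 0.037). Each was called in 2 of the 6 fits that left out 1 library, and neither passed without oeNC replicate 3, with an adjusted p of 0.11 from limma for both. Exons of PPID overlap ETFDH on the opposite strand.

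The adaptor STIP1 (HOP), whose TPR domains join HSP70 to HSP90, was expressed at 128, 124 and 121 FPKM in oeNC and 154, 145 and 142 FPKM in oeSTUB1 libraries. The groups did not overlap (log2 fold change 0.24, limma adjusted p = 0.076), and STIP1 was called at 0.25 without oeSTUB1 replicate 2 (limma adjusted p = 0.012). AHSA1 (AHA1), the activator of the HSP90 ATPase, gave 0.24 with all libraries (limma adjusted p = 0.16) and 0.14 without oeSTUB1 replicate 2, where it was called (limma adjusted p = 0.042). That library held 124 FPKM of AHSA1, against 98.7 and 101 FPKM in oeSTUB1 replicates 1 and 3. FKBP4 (0.19), the cochaperone p23 gene PTGES3 (0.17), the HSP70-interacting ST13 (0.12) and the kinase adaptor CDC37 (0.07) were not called.

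The heat shock factors were not called. HSF1, the main activator of heat shock genes, was expressed at 28.0, 27.9 and 31.0 FPKM in oeNC and 27.0, 30.1 and 26.8 FPKM in oeSTUB1 libraries. The groups overlapped, and the log2 fold change was -0.05 (limma adjusted p = 0.72). HSF2, a related factor active in development, averaged 5.86 ± 0.586 and 5.37 ± 0.477 FPKM (SD, n = 3 each), and its log2 fold change was -0.12 (limma adjusted p = 0.50). These are mRNA levels, and the activity of HSF1, which is set mainly at the protein level, was not measured in these libraries.

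Genes with and without heat shock element letters were compared as a description. The 16 genes with at least 1 match to 2 units had a median of 0.27 on the log2 scale, and 5 of them were higher. The 31 genes without a match had a median of 0.17, with 5 higher and 1 lower. Over all tested genes, which were not split by match, the median was 0.02, with 7.01% higher and 6.59% lower. The 5 genes with a match to 3 units ranged from -0.18 for HSPD1 to 0.66 for HSPA8, with 2 higher. HSPH1, BAG1, DNAJB5, DNAJC2 and PPID were higher and had no match in the window. STUB1, HSPA14, BAG4, ST13, FKBP4 and HSF1 were not among the promoter sequences.

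The calls moved with the libraries included. Without oeSTUB1 replicate 2, 21 of the 53 genes were higher, beside 14.8% of all tested genes, and 2 were lower, beside 12.0%, with a median log2 fold change of 0.14. All 12 genes called with 6 libraries were also called in that fit. The 11 added were HSPA14, HSPA4, HSP90AA1, CCT2, CCT3, DNAJA3, BAG3, BAG5, STIP1 and AHSA1, which were higher, and HSPD1, which was lower. Without oeNC replicate 3, 7 genes were higher, beside 3.67%, and none was lower, beside 3.11%. That fit lost HSPA8, DNAJB5, DNAJB6, DNAJC2, BAG1, PPID and FKBP5 and gained HSPA1A and HSPA1B. Without both libraries, 20 genes were higher, beside 13.6%, and 3 were lower, beside 10.1%. Without oeNC replicate 1, 5 genes were higher, beside 3.2%, and without oeNC replicate 2 also 5, beside 3.11%. Without oeSTUB1 replicate 1, 6 genes were higher, beside 4.49%, and without oeSTUB1 replicate 3, 8 genes, beside 5.17%. STUB1, HSPH1, DNAJA1 and DNAJB1 were called in every fit that left out 1 of the 6 libraries.

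**Figure D4:**
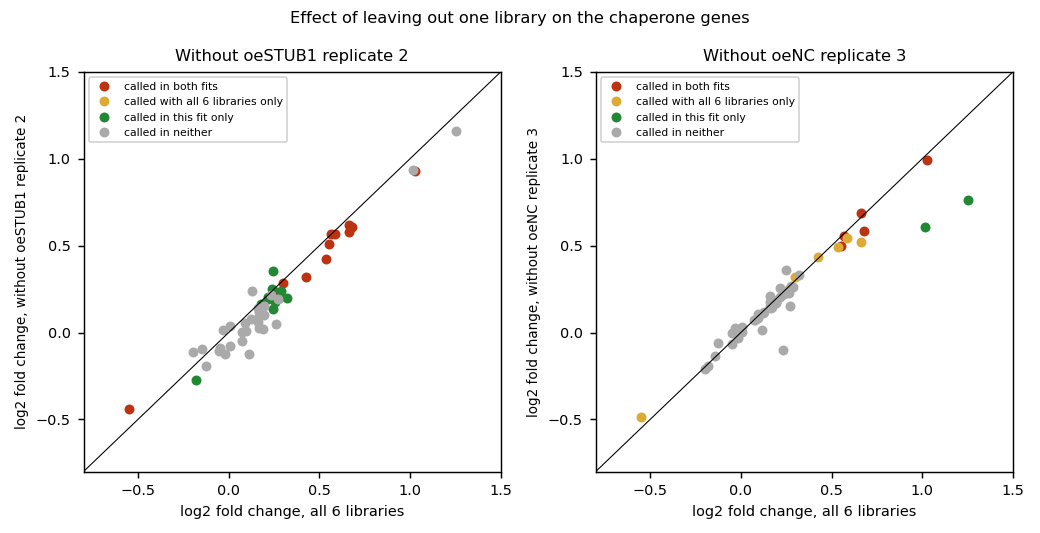
Log2 fold change of the 53 genes with all 6 libraries (x axis) against that without oeSTUB1 replicate 2 (left, y axis) and without oeNC replicate 3 (right, y axis), with the line of equal values. Green points are called only in the reduced fit, which are 11 genes on the left and HSPA1A and HSPA1B on the right, and yellow points, 7 on the right, are called only with all libraries.

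A further list of 65 genes of the chaperone network, outside the 53, was examined in the same fit, and 63 of them passed the filter on low values. Of these, 3 were higher and none was lower, beside 7.01% and 6.59% of all tested genes, and the median log2 fold change was 0.15. CHORDC1, an HSP90 co-chaperone that is itself a heat shock gene, was expressed at 16.6, 17.1 and 15.6 FPKM in oeNC and 23.6, 24.7 and 23.3 FPKM in oeSTUB1 libraries. It rose by 0.54 on the log2 scale (SE 0.075, limma adjusted p = 0.0035), with no overlap between the groups. HSPA6, an HSP70 gene that is nearly silent outside strong stress, was covered by 3, 8 and 8 fragments in oeNC and 40, 28 and 15 fragments in oeSTUB1 libraries. Its log2 fold change on the log2(FPKM + 0.1) scale was 1.30 (SE 0.321, limma adjusted p = 0.035), which understates the change at this level, and its adjusted p was 0.019 to 0.12 over the fits that left out 1 library. UBE2N, a ubiquitin-conjugating enzyme that makes K63-linked chains and works with STUB1, rose from 14.6 ± 0.696 to 18.3 ± 1.12 FPKM (SD, n = 3 each; log2 fold change 0.33, limma adjusted p = 0.038). UBE2N was called in 1 of the 6 fits that left out 1 library, with limma adjusted p = 0.15 in the highest.

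None of the 10 endoplasmic reticulum chaperone genes of this list was called with all libraries. Without oeSTUB1 replicate 2, 5 were higher (HSPA5, HYOU1, DNAJB11, DNAJC3 and CANX), beside 14.8% of all tested genes. The median log2 fold change of the 10 was 0.19 with all libraries. The most abundant of these 10, CALR, gave 0.18 (limma adjusted p = 0.24). HSP90B1, the HSP90 of the endoplasmic reticulum, was more abundant than CALR but was listed with the HSP90 and TPR partners. It was expressed at 481 ± 5.74 and 536 ± 35.7 FPKM (SD, n = 3 each, log2 fold change 0.15, limma adjusted p = 0.30). No mitochondrial partner was called (7 tested, median 0.11), nor was any of the 10 CCT, prefoldin and tubulin folding partners (median 0.19), of which CCT6A was the most abundant gene (0.23, limma adjusted p = 0.13). The autophagy receptor SQSTM1, the most abundant gene among the STUB1 enzymes and aggregate handling genes, gave -0.05 (limma adjusted p = 0.80). Without oeSTUB1 replicate 2, the median of the mitochondrial partners was 0.06 and that of the CCT, prefoldin and tubulin folding partners 0.05. In that fit 11 of the 63 genes were higher, beside 14.8% of all tested genes, and without oeNC replicate 3, 1 was, CHORDC1, beside 3.67%.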

How the data were processed

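RNA-seq of 6 TFK1 libraries (3 oeNC, 3 oeSTUB1) was analysed from the FPKM table that the authors deposited. Groups and replicate numbers came from the labels, and columns were matched by name. The submitters' processing notes list fastp 0.20.1, HISAT2 2.1.0, HTSeq 0.11.2, R 3.2.0, DESeq2 1.22.2 and GRCh38.p13 without role or order. The annotation is not given in the sources used here. The statistics section of the paper says in general that its experiments were independent and repeated, but the labels and the RNA-seq methods do not say whether the libraries of a group came from separate cultures. The p-values measure the spread between these libraries, which may be technical.

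FPKM values were whole multiples of a step for each gene, from which whole fragments were recovered for 100% of genes (tolerance 0.001 fragment). The fragments and the gene lengths recovered with them are possibly too low by a common divisor. Recovered fragments gave depth and replicate noise and were the input of an alternative fit with limma-voom. They cover counting error only. Replicates differed by more than sampling noise, so no library was counted as a copy. The groups were compared by limma (version 3.58.1, R version 4.3.3) with a linear fit and eBayes with a trend, two-sided, on log2(FPKM + 0.1). Genes averaging 0.1 FPKM or more were kept, and p-values were adjusted by Benjamini-Hochberg over 15353 genes. On this scale fold changes of low genes are understated. Lists were described by counts and medians, without a test. The steps were tested on simulated data.

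The genes and lists were chosen with earlier results of these data known. Described by name are STUB1, every gene called, the most abundant and the most changed gene of each subfamily, HSF1, HSF2, HSPA1A and HSPA1B, and genes called without oeSTUB1 replicate 2. Others were named after their values were seen. Promoter letters came from RefSeq (GRCh38.p14) and positions and overlaps from GENCODE release 29, in which 88.8% of the tested genes were found by symbol for the medians by chromosome. Python 3.11.15 with numpy and pandas was used for other steps. Alternatives were other pseudocounts, filters and normalizations, a replicate block, leaving out each library and, added after the data were seen, a length correction and leaving out both oeNC replicate 3 and oeSTUB1 replicate 2. Replicate numbers did not pair the samples.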

Additional observations from a re-analysis of the deposited data

How the results depend on the processing

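STUB1 stayed higher under every alternative run, at 0.90 to 1.08 on the log2 scale, and the median of the 53 chaperone genes stayed between 0.11 and 0.24. Leaving out 1 library in turn, 5 to 21 chaperone genes were higher and 0 to 2 lower, 477 to 2274 of all tested genes were higher and 456 to 1838 lower, and 1 to 11 network partners were called. Without both oeNC replicate 3 and oeSTUB1 replicate 2, the counts were 20 and 3 chaperone genes, 2084 and 1557 of all genes, and 8 partners. With a length correction, 16 chaperone genes were higher and 2 lower, with HSPA1A, HSPA14, HSP90AA1, CCT2, CCT3, AHSA1 and the lower HSPD1 gained and DNAJB6 lost, 1675 and 1647 of all genes were higher and lower, and 6 partners were called. With a minimum absolute log2 fold change of 1, 1 chaperone gene was higher and 0 lower, against 429 and 369 of all genes. With quantile normalization 2 chaperone genes were lower, the added one being HSPD1, and HSP90AB1 changed sign to 0.0069, not called. The causes were not tested. For the 28 chaperone genes named by rule other than STUB1, the alternatives other than the 2 added later kept direction and side of the threshold in 357 cases, lost the call in 44 and gained it in 18.

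The replicate numbers did not pair the samples, with correlations of deviations of -0.05, -0.05 and 0.06 for numbers 1, 2 and 3. With the replicate block, 9 chaperone genes were higher and 1 lower, 741 and 747 of all genes were higher and lower, and 1 partner was called. The block lost DNAJB5, DNAJB6, DNAJC2 and PPID and gained HSPA1A and HSPA1B. Depth did not limit most of the chaperone genes, whose lowest recovered number in any library was 115 fragments, for DNAJB5. The 3 to 40 fragments of HSPA6 limit its fold change.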
